A study of Mus musculus with 6 samples.

Results

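The genes described here encode the secreted growth factors of the TGF-beta group, their receptors and the proteins that hold them latent, together with 1 matrix protein induced by them. They were taken by name as 10 of the 44556 gene symbols in the count tables: the ligands *Tgfb1*, *Tgfb2* and *Tgfb3*, the receptors *Tgfbr1*, *Tgfbr2* and *Tgfbr3*, the latent TGF-beta binding proteins *Ltbp1*, *Ltbp2* and *Ltbp3*, and *Tgfbi*. RNA-seq had been carried out on parietal bone of newborn C57BL/6 mice, with 3 libraries from OsxCre mice and 3 from OsxCre;Stat3fl/fl littermates. Both genotypes carried the OsxCre transgene, which expresses Cre recombinase mainly in osteoblast precursors. The OsxCre;Stat3fl/fl mice in addition carried floxed *Stat3* alleles. In the study's methods, loxP sites lie on either side of exons 18 to 20 in this strain, so that Cre can remove them. The libraries hold RNA of the whole bone piece, so cells without Cre are counted too, and fewer cells of a type cannot be told apart from less RNA per cell. Of the 10 genes, 8 had enough counts to be tested, and 2, *Tgfbr1* and *Ltbp1*, had not.

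TGF-beta ligands are secreted in a latent form, in which the growth factor stays bound to its own propeptide. The propeptide is joined to a latent TGF-beta binding protein that anchors the complex in fibrillin-containing matrix, from which integrins, proteases or thrombospondin can release the factor. The released ligand binds the type II receptor TGFBR2, which phosphorylates the type I receptor TGFBR1 and so starts signalling through SMAD2 and SMAD3, while TGFBR3 (betaglycan) is a co-receptor that presents ligand. Bone matrix is known as a large store of latent TGF-beta, and the ligands act on osteoblast precursors and in the sutures of the skull.

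The count tables summed to between 8193651 and 12080044 counts per library, and every OsxCre;Stat3fl/fl library was smaller than every OsxCre library. *Stat3* itself was counted at 150, 135 and 141 CPM (counts scaled to library size by the TMM method) in OsxCre and at 153, 155 and 155 CPM in the libraries labelled OsxCre;Stat3fl/fl, so the gene-level count did not show the deletion. *Xist* had between 7333 and 12392 counts in every library and *Ddx3y*, *Kdm5d*, *Eif2s3y* and *Uty* at most 1, whereas the study describes male newborns. Genotypes were therefore taken from the labels alone. Of 8 osteoblast markers, 1, *Ibsp*, was lower at an adjusted p under 0.05 (log2 difference -0.66, edgeR adjusted p = 0.0213), beside 0.481% of all genes tested, and 0 were higher. At an unadjusted p under 0.05 from edgeR, 3 of the 8 were lower and 0 higher, beside 8.34% and 8.03% of all genes tested. Their median log2 difference was -0.26. The summed CPM of the 8 overlapped, from 12552 to 16816 in OsxCre and from 10963 to 14006 in OsxCre;Stat3fl/fl. Most of this sum was *Col1a1*, with means of 13055 CPM in OsxCre and 11859 CPM in OsxCre;Stat3fl/fl, so it says little about the other markers.

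The promoter windows of the ligand genes *Tgfb1* and *Tgfb2* differed in their motifs and base content. The 250 bases before the start of *Tgfb1* (chr7:25686752-25687001, plus strand) and of *Tgfb2* (chr1:186705990-186706239, minus strand) are given from RefSeq on GRCm38.p6, 5′ to 3′ on the strand of the gene, as the pair of ligands in the sequence table. Capitals mark GC boxes (GGGCGG or CCGCCC) and the TATA box (TATAAA or TTTATA).
Tgfb1: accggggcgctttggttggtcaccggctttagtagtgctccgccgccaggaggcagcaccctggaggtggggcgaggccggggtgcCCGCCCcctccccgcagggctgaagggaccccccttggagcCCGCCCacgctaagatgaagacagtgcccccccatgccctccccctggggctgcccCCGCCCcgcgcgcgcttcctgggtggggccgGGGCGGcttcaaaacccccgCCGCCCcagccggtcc
Tgfb2: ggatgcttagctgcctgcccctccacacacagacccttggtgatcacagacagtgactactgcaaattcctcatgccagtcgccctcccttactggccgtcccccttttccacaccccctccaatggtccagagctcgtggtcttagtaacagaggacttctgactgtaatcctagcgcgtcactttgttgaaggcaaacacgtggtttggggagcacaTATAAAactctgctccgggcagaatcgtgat
The *Tgfb1* window held 5 GC boxes and no TATA box, with 75.2% G and C and 21 CpG. The *Tgfb2* window held 1 TATA box, whose first base is at -31 from the start, and no GC box, with 53.6% G and C and 8 CpG. The start behind this *Tgfb2* window lies inside the span listed for the gene, which reaches further upstream to 186709697. Over all 32851 promoter windows of this length, 32.7% held a GC box and 12.4% a TATA box on either strand, and the median content of G and C was 52.4%. The table has 10 such windows for 8 of the 10 genes, without *Tgfb3* and *Tgfbr3*. The letters TTCNNNGAA, a common form of the STAT motif, were searched on both strands and were in 0 of these 10 windows and in 7.02% of all windows. The short SMAD motif CAGAC was in 8 of the 10 windows, among them those of *Tgfb2*, *Tgfbr2*, *Ltbp3* and *Tgfbi*, and in 42.2% of all.

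To ask whether these genes differ where *Stat3* is deleted in the osteoblast lineage, the genotypes were compared across the 15600 genes with enough counts, by the quasi-likelihood test of edgeR. Fold changes are OsxCre;Stat3fl/fl over OsxCre. No gene of the set changed at an adjusted p under 0.05. The log2 fold changes ran from -0.13 for *Ltbp3* to 0.27 for *Tgfbr3*, with 4 higher and 4 lower and a median of -0.01, beside a median of -0.00 over all 15600 genes. Before adjustment, 1 of the 8, *Tgfbr3*, was higher at p under 0.05, where 8.03% of all genes tested passed, and 0 were lower, where 8.34% passed, or 16.4% in either direction. A change past 1.5-fold was seen in 0 of the 8 and in 8.83% of all genes tested. An adjusted p under 0.05 was reached by 0 of the 8, beside 1.26% of all genes tested, and both DESeq2's Wald test and limma-voom gave 0 adjusted and 1 unadjusted call for these genes too. The 95% interval of the fold change stayed within 1.5-fold in both directions for all 8 genes, while this held for 54.8% of all genes tested. It held for 7 of the 8, without *Tgfbr3*, when OsxCre library 1 or 3 or OsxCre;Stat3fl/fl library 1 or 2 was left out. Intervals narrow as counts rise, and the median SE was 0.088 for the 8 genes and 0.147 over all genes tested. The 54.8% is therefore not a share among genes of like counts.

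**Figure D1:**
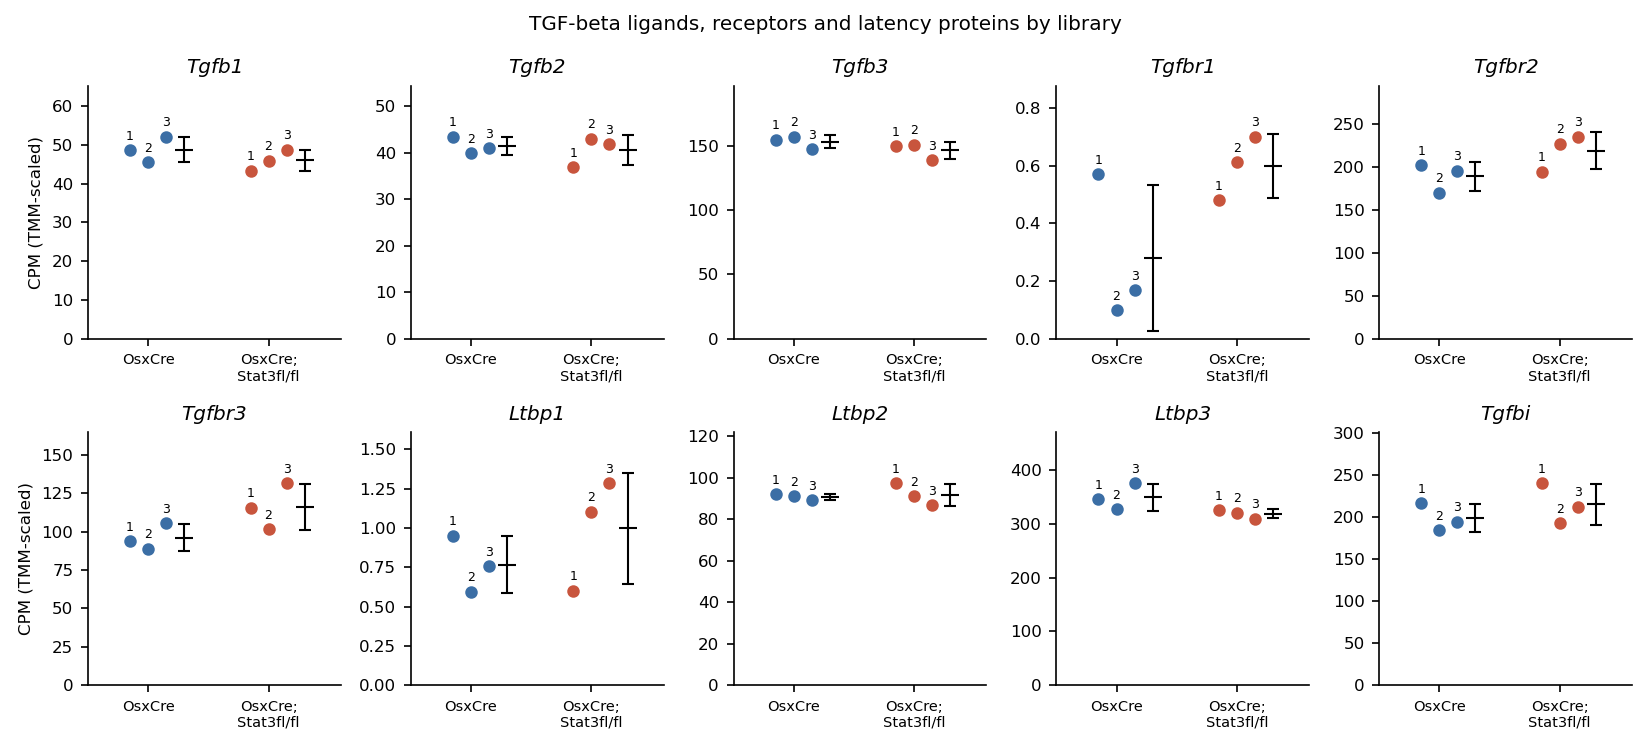
TMM-scaled CPM of the 10 genes in each library, one panel a gene with its own axis from 0. Numbered points are libraries 1 to 3 of each genotype (blue OsxCre, red OsxCre;Stat3fl/fl), and the bar is the mean with the SD of 3. The libraries of the genotypes overlap in every panel but that of *Ltbp3*, and *Tgfbr1* and *Ltbp1* stay under 1.3 CPM.

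Among the ligands, *Tgfb1* (chromosome 7, 25687002 to 25705077, GRCm38.p6) encodes TGF-beta1, the ligand stored in bone matrix. It was counted at 48.6, 45.6 and 52.2 CPM in the OsxCre libraries and at 43.4, 46.0 and 48.8 CPM in the OsxCre;Stat3fl/fl libraries. The highest value was in an OsxCre library and the lowest in an OsxCre;Stat3fl/fl library, with the others interleaved. The difference was -0.09 on the log2 scale with an SE of 0.09 (edgeR, adjusted p = 0.681), and the 95% interval of the fold change ran from 0.821 to 1.08.

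*Tgfb2* (chromosome 1, 186622787 to 186709697) encodes TGF-beta2, the ligand that depends most on TGFBR3 for binding its receptor. Its values were 43.5, 39.9 and 41.0 CPM in OsxCre and 36.9, 43.0 and 41.9 CPM in OsxCre;Stat3fl/fl. These ranges overlapped, and only OsxCre;Stat3fl/fl library 1 fell below the OsxCre values. On the log2 scale the genotypes differed by -0.03 (SE 0.09, edgeR adjusted p = 0.913), with a fold change between 0.849 and 1.13 at 95%.

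*Tgfb3* (chromosome 12, 86056743 to 86079041) encodes TGF-beta3. It was counted at 155, 157 and 147 CPM in OsxCre and at 150, 151 and 139 CPM in OsxCre;Stat3fl/fl. The OsxCre;Stat3fl/fl values were a little lower but reached into the OsxCre range. A log2 difference of -0.06 (SE 0.07, edgeR adjusted p = 0.715) went with a 95% interval of the fold change from 0.854 to 1.07. The 3 ligands thus had log2 fold changes between -0.09 and -0.03, and all were again below 0 in each of the 3 other scalings. Without OsxCre library 1 or OsxCre;Stat3fl/fl library 1, *Tgfb2* turned to 0.011 and 0.035.

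The ligands were set side by side per length of exon, since longer transcripts give more counts. Expressed as CPM per kb of exon, *Tgfb3* had 45.2 ± 1.52 (SD, n = 3) in OsxCre, *Tgfb1* 19.1 ± 1.29 and *Tgfb2* 8.56 ± 0.385. *Tgfb3* made up 62.1 ± 1.97% of the summed per-length level of the ligands in OsxCre (SD, n = 3) and 62.1 ± 2.32% in OsxCre;Stat3fl/fl. *Tgfb1* made up 26.2 ± 1.83% and 25.8 ± 1.66%, and *Tgfb2* 11.7 ± 0.42% and 12.0 ± 0.833%. The order *Tgfb3*, *Tgfb1*, *Tgfb2* was the same in each of the 6 libraries. Between genotypes, every share differed by less than the SD of either. These SDs are between libraries and do not cover uneven counting of different genes, which was not tested, so the shares are shares of counts.

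Of the receptors, *Tgfbr2* (chromosome 9, 116087695 to 116175363) encodes the receptor that binds ligand and phosphorylates the type I receptor. It was counted at 203, 170 and 196 CPM in OsxCre and at 195, 227 and 236 CPM in OsxCre;Stat3fl/fl. The 2 highest values were from OsxCre;Stat3fl/fl, whereas OsxCre;Stat3fl/fl library 1 lay among the OsxCre values. The log2 difference of 0.21 had an SE of 0.10 (edgeR, adjusted p = 0.361), and the fold change lay between 0.98 and 1.37 at 95%.

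*Tgfbr3* (chromosome 5, 107106567 to 107289629) encodes betaglycan and had the smallest p of the set. Its values were 93.7, 88.9 and 106 CPM in OsxCre and 116, 102 and 132 CPM in OsxCre;Stat3fl/fl. OsxCre library 3 lay above OsxCre;Stat3fl/fl library 2, so the genotypes overlapped. The mean was 96.1 ± 8.57 CPM (SD, n = 3) in OsxCre and 116 ± 15.1 CPM (SD, n = 3) in OsxCre;Stat3fl/fl. The log2 difference was 0.27 with an SE of 0.11, and the 95% interval of the fold change ran from 1.01 to 1.45. In edgeR the unadjusted p was 0.0408 and the adjusted p 0.279. By the exact permutation test, two-sided, p was 0.2 where 3 libraries against 3 allow no less than 0.1. The unadjusted p rose above 0.05 without OsxCre library 1 (0.105), OsxCre library 2 (0.129), OsxCre;Stat3fl/fl library 1 (0.0743) or OsxCre;Stat3fl/fl library 3 (0.145), and to 0.0913 when libraries were scaled by their totals. Without OsxCre;Stat3fl/fl library 1, *Tgfbr2* had an unadjusted p of 0.0256 and an adjusted p of 0.245 from edgeR.

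Summed levels of markers of other cells are given beside these receptor values, neither of which passed the adjusted threshold. The summed CPM of 8 skeletal muscle markers ran from 26633 to 28885 in OsxCre and from 31531 to 46866 in OsxCre;Stat3fl/fl. Of these 8, *Myh3*, embryonic myosin, was higher and *Myh4*, an adult fast myosin, was lower at an adjusted p under 0.05 from edgeR, with log2 fold changes of 1.71 and -3.61, beside 0.776% of all genes tested on the higher and 0.481% on the lower side. At an unadjusted p under 0.05 from edgeR, 6 of the 8 were higher and 1 lower, beside 8.03% and 8.34% of all genes tested. Their median log2 fold change was 0.56. The summed CPM of 5 macrophage markers ran from 194 to 213 in OsxCre and from 219 to 240 in OsxCre;Stat3fl/fl, with 0 of the 5 called. For 5 endothelial markers the ranges were 463 to 654 and 565 to 668, which overlapped, again with 0 of 5 called. No marker of these 3 lists was at 0 in any library. The part of such cells in the receptor values was not tested.

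*Tgfbr1* (chromosome 4, 47353222 to 47414926) encodes the type I receptor, without which the canonical signal does not pass. Its row held 6, 1 and 2 counts in the OsxCre libraries and 4, 5 and 6 counts in the OsxCre;Stat3fl/fl libraries. At 24 counts in all it was under 0.71 CPM in every library, near the 3 counts that a library can just show, and was too low for the test. By comparison, *Tgfbr2* had 11672 counts over the 6 libraries. No fold change is given for *Tgfbr1*. How the authors' counting treated its reads is not stated in the sources used here, so the low count is not read as absence of the receptor.

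*Ltbp1* (chromosome 17, 75005480 to 75392512), whose product is a main binding partner of the latent TGF-beta1 complex, was as thinly counted. It had 10, 6 and 9 counts in OsxCre and 5, 9 and 11 counts in OsxCre;Stat3fl/fl, or 25 counts in each genotype. As the OsxCre libraries were larger, the mean was 0.767 ± 0.179 CPM (SD, n = 3) in OsxCre and 0.997 ± 0.355 CPM in OsxCre;Stat3fl/fl. The genotypes overlapped, and *Ltbp1* was too low for the main fit. The fit with no filter on low counts took in both genes, with edgeR adjusted p of 0.661 for *Tgfbr1* and 0.771 for *Ltbp1*.

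*Ltbp2* (chromosome 12, 84783212 to 84876558) encodes a fibrillin-associated protein that, unlike its relatives, does not bind latent TGF-beta. Its values were 92.0, 91.2 and 89.2 CPM in OsxCre and 97.5, 91.1 and 86.7 CPM in OsxCre;Stat3fl/fl. The OsxCre;Stat3fl/fl values lay on both sides of the narrow OsxCre range. The log2 difference was 0.01 (SE 0.07, edgeR adjusted p = 0.949) and became -0.03 with library totals, and the 95% interval of the fold change ran from 0.9 to 1.13.

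*Ltbp3* (chromosome 19, 5740900 to 5758536) encodes the latent TGF-beta binding protein with the highest count here. It was counted at 345, 327 and 376 CPM in OsxCre and at 326, 321 and 310 CPM in OsxCre;Stat3fl/fl. Every OsxCre;Stat3fl/fl value lay below every OsxCre value, though the nearest were 326.9 and 325.6 CPM. *Ltbp3* was the only one of the 8 genes without overlap, which on the lower side was the case for 12.2% of all genes tested, on the higher side for 10.8% and on either for 23.0%. Its log2 difference of -0.13 had an SE of 0.08 (edgeR, adjusted p = 0.474), with a fold change between 0.799 and 1.04 at 95%. The exact permutation test, two-sided, gave p = 0.1, the smallest possible, which follows from the lack of overlap and adds nothing to it.

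*Tgfbi* (chromosome 13, 56609586 to 56639359) encodes a secreted adhesion protein of the matrix, named for its induction by TGF-beta. Its values were 216, 184 and 194 CPM in OsxCre and 240, 192 and 212 CPM in OsxCre;Stat3fl/fl. The highest value was from OsxCre;Stat3fl/fl library 1 and the others were interleaved. Its log2 difference was 0.12 (SE 0.10, edgeR adjusted p = 0.637), and the 95% interval of the fold change ran from 0.916 to 1.28.

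**Figure D2:**
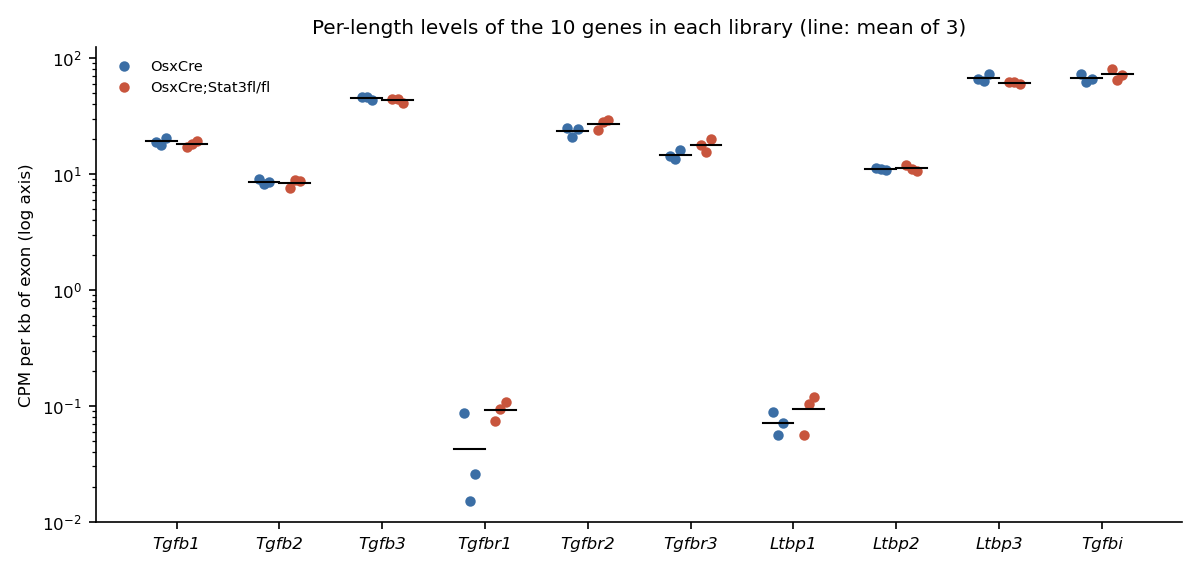
CPM per kb of exon (log axis) of the 10 genes in each library, blue for OsxCre and red for OsxCre;Stat3fl/fl, with a line at the mean of 3. *Ltbp3* and *Tgfbi* are the highest and *Tgfbr1* and *Ltbp1* lie under 0.121, while the other genes lie between 7.61 and 46.5.

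Ordered by their per-length level over the 6 libraries, *Tgfbi* came first with 69.6 ± 6.96 CPM per kb of exon (SD, n = 6), followed by *Ltbp3* with 64.3 ± 4.54. These neighbours overlapped between libraries. *Tgfb3* followed with 44.3 ± 1.90 and *Tgfbr2* with 25.3 ± 2.96, each apart from its neighbours in all libraries. *Tgfb1* with 18.5 ± 1.21 and *Tgfbr3* with 16.2 ± 2.38 overlapped. *Ltbp2* with 11.1 ± 0.44 and *Tgfb2* with 8.47 ± 0.501 did not. *Ltbp1* and *Tgfbr1* came last with 0.0825 ± 0.0263 and 0.0672 ± 0.0379, and overlapped. Per length of the longest transcript in place of all exons, *Ltbp1* was at 0.132 and *Ltbp2* at 13.5 CPM per kb, with the order of the 10 genes the same. Low counts were not limited to these genes, since *Smad2*, the effector of the pathway in most cells, had between 35 and 49 counts in a library, and the cause was not tested.

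The counts of these genes varied little between libraries of one genotype. The SD of log2 CPM within genotypes was between 0.06 for the steadiest and 0.16 for the most variable of the 8 genes, with a median of 0.09. The median was 0.11 over the 4737 genes tested whose mean CPM lay between the lowest and the highest of the 8. Across all 6 libraries, the lowest of the 28 pairwise correlations of log2 CPM among the 8 genes was that of *Tgfb3* with *Tgfbr3* (Pearson's r = -0.944) and the highest that of *Tgfbr2* with *Tgfbr3* (Pearson's r = 0.66). These correlations are descriptions over 6 libraries that share their scaling and differ in genotype. By the same measure, the genes most like *Tgfbr3* were *Rhou* (r = 0.98), *Kctd6* (r = 0.978) and *Aplp2* (r = 0.974), and 144 of 15599 genes had an r above 0.9.

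To see whether the rest of the pathway was as steady, 36 further genes were taken from a fixed list of activators, receptors, SMADs and responding genes, all of which could be tested. At an unadjusted p under 0.05, 9 of the 36 were higher, beside 8.03% of all genes tested, and 1 was lower, beside 8.34%. At an adjusted p under 0.05, 2 were higher, beside 0.776% of all genes, and 0 were lower, beside 0.481%. The median log2 fold change was -0.00, as over all genes. A change past 1.5-fold was seen in 5 of the 36, beside 8.83% of all genes tested. The 95% interval stayed within 1.5-fold for 25 of the 36, beside 54.8%, at a median SE of 0.114.

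The genes that rose at an adjusted p under 0.05 were *Fbn2*, a matrix fibrillin, and *Ctgf*, a matricellular protein that responds to TGF-beta and to other signals. *Fbn2* was counted at 217, 195 and 199 CPM in OsxCre and at 280, 311 and 319 CPM in OsxCre;Stat3fl/fl, without overlap, and rose by 0.58 on the log2 scale (SE 0.09, edgeR adjusted p = 0.0264). *Ctgf* was counted at 117, 105 and 160 CPM in OsxCre and at 244, 267 and 249 CPM in OsxCre;Stat3fl/fl, also without overlap, and rose by 0.99 on the log2 scale (SE 0.15, edgeR adjusted p = 0.0285). With each library left out in turn, *Fbn2* kept a log2 fold change between 0.54 and 0.63 and *Ctgf* between 0.87 and 1.19, while an adjusted p under 0.05 held in 0 of the 6 fits for *Fbn2* and in 1 of the 6, that without OsxCre library 3, for *Ctgf*.

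The next smallest p-values belonged to *Cyr61*, *Itgb6* and *Thbs1*, none of which passed the adjusted threshold in edgeR as fitted here. *Cyr61*, a matricellular relative of *Ctgf*, was counted at 46.7, 46.3 and 84.2 CPM in OsxCre and at 148, 194 and 122 CPM in OsxCre;Stat3fl/fl, without overlap. Its log2 difference was 1.39 (SE 0.26, edgeR adjusted p = 0.0564). *Thbs1*, thrombospondin 1, which can activate latent TGF-beta, differed by 0.64 (edgeR adjusted p = 0.0998), and *Itgb6*, a subunit of the activating integrin alphaVbeta6 of epithelia, by -1.04 (edgeR adjusted p = 0.0748). All 3 passed it with no filter on low counts and in DESeq2's Wald test, and *Cyr61* passed in 6 and *Itgb6* in 3 of 14 alternatives. Over these alternatives the adjusted p ran from 3.08e-07 to 0.199 for *Cyr61*, from 0.00191 to 0.224 for *Itgb6* and from 0.00158 to 0.276 for *Thbs1*. *Itgb6* was low, with 21.7 ± 2.09 CPM in OsxCre and 10.6 ± 3.25 CPM in OsxCre;Stat3fl/fl (SD, n = 3).

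The pathway genes were then counted by role. Of the 12 SMADs and their regulators, 1, *Smurf2*, a ubiquitin ligase, had an unadjusted p under 0.05, beside 16.4% of all genes tested, and 10 had a 95% interval within 1.5-fold, beside 54.8%. The group's fold change farthest from 0 was that of *Pmepa1*, an inhibitor of the pathway, at -0.50 on the log2 scale (edgeR adjusted p = 0.363), with 214 CPM in OsxCre library 3 and between 98.0 and 116 CPM in the others. The effector *Smad3* had a log2 fold change of -0.03, the common partner *Smad4* of -0.07 and the inhibitor *Smad7* of -0.00, with adjusted p-values of 0.902, 0.657 and 0.994 from edgeR. Of the 8 genes known to respond to TGF-beta, 3 were higher at an unadjusted p under 0.05, *Ctgf*, *Cyr61* and *Postn*, beside 8.03% of all genes tested. On the lower side 0 passed, beside 8.34%. The log2 fold changes of the 8 had a median of 0.09, with 5 above and 3 below 0. Of the 3 further receptors, 1, *Acvrl1*, an endothelial type I receptor, had an unadjusted p under 0.05, beside 16.4% of all genes tested. Its log2 difference was 0.31 (edgeR adjusted p = 0.131). Of the 13 genes of latency and activation, 4 were higher and 1 lower at an unadjusted p under 0.05, beside 8.03% and 8.34% of all genes tested. The 95% interval stayed within 1.5-fold for 8 of these 13, 5 of the 8 responding genes and 2 of the 3 further receptors. *Smurf2*, *Pmepa1*, *Postn*, *Acvrl1*, *Smad2*, *Smad3*, *Smad4* and *Smad7* were named after their values were seen. The summed muscle and macrophage markers given above did not overlap between genotypes, as was the case for *Fbn2*, *Ctgf* and *Cyr61*. The nearest macrophage sums were 213 and 219 CPM, and 23.0% of all genes tested did not overlap either. The sums of every other marker list overlapped. For 4 cartilage markers they ran from 1775 to 3055 CPM in OsxCre and from 2732 to 3466 CPM in OsxCre;Stat3fl/fl. For 5 mesenchyme and fibroblast markers the ranges were 6804 to 8614 and 7141 to 9546 CPM. Of these markers, 1 of cartilage and 1 of mesenchyme were higher and 1 of mesenchyme lower at an unadjusted p under 0.05 from edgeR. The part of any of these cells in the values of *Fbn2*, *Ctgf* and *Cyr61* was not tested.

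**Figure D3:**
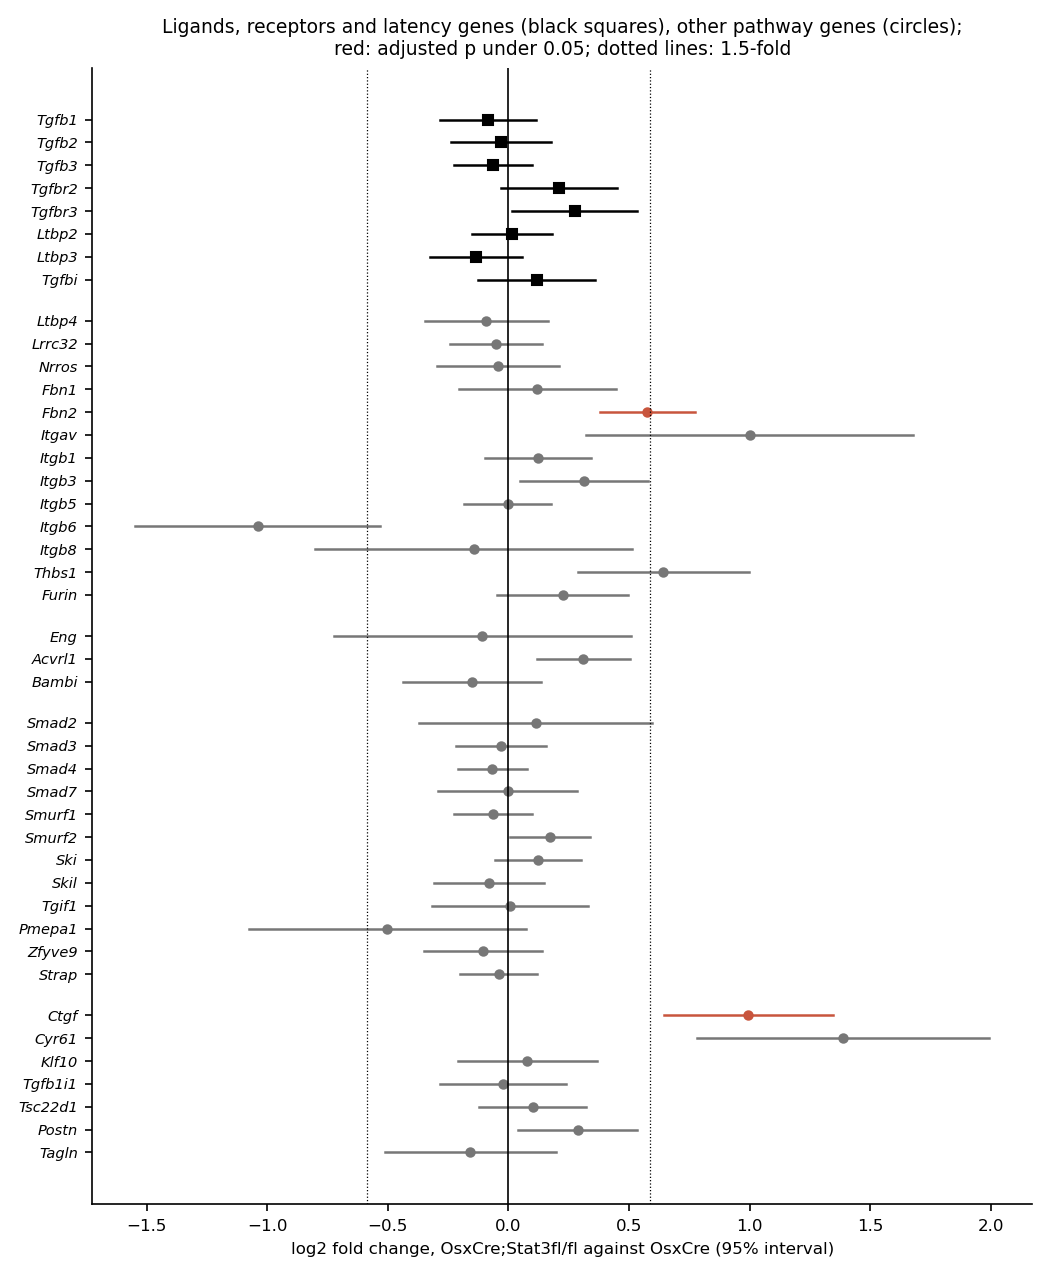
Log2 fold change of OsxCre;Stat3fl/fl against OsxCre with its 95% interval, for the 8 tested genes of the set (black squares) and other genes of the pathway list (circles, by role). Dotted lines mark 1.5-fold, and the intervals of all 8 squares lie between them, while *Fbn2* and *Ctgf* are drawn in red for an adjusted p under 0.05.

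**Figure D4:**
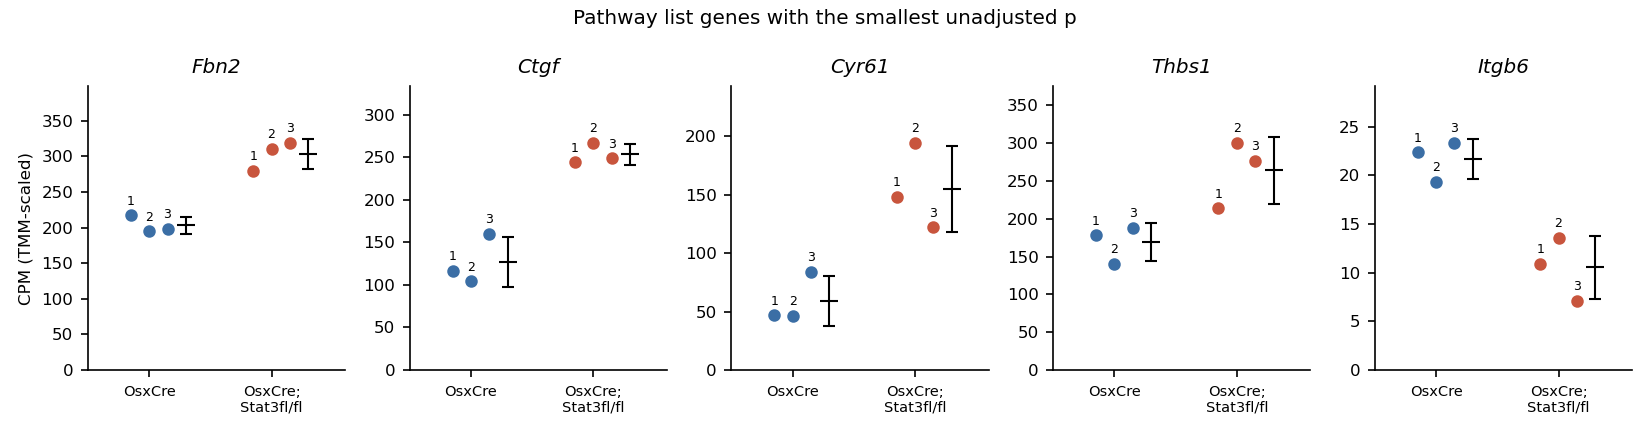
TMM-scaled CPM by library of the 5 pathway genes with the smallest unadjusted p, drawn as in the plot of CPM for the 10 genes (numbered libraries, mean with SD of 3, axis from 0). *Fbn2*, *Ctgf*, *Cyr61* and *Thbs1* are higher and *Itgb6* lower in every OsxCre;Stat3fl/fl library than in any OsxCre library.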

How the data were processed

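Counts of 3 OsxCre and 3 OsxCre;Stat3fl/fl libraries were analysed, with genotypes and replicate numbers from the sample labels and 3 mice per genotype in the study's methods. The authors deposited raw counts per gene symbol, 1 table a library. The submitters' processing notes name HISAT2 and GRCm38, whereas the methods describe TopHat and Cufflinks on mm9, and the counting program is not given in the sources used here. Of the symbols, 75.5% matched RefSeq on GRCm38.p6, from which gene positions and promoters came. The labels describe polyA RNA. Rows passing filterByExpr, set to a minimum count of 10 and a minimum total of 15, were scaled by TMM and tested with edgeR 4.0.16 (quasi-likelihood, two-sided, Benjamini-Hochberg over 15600 genes) in R 4.3.3. This took the place of Cuffdiff, which needs reads. Standard errors are the log2 fold change over the square root of F, and 95% intervals use the same degrees of freedom. Exon lengths are unions over GENCODE transcripts of NCBIM37. The test was tested on simulated counts. No libraries were duplicates, since chi-square per degree of freedom was at least 7.51 for every pair of one genotype. A floor of 3 counts covers counting error only.

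All 10 genes were named, with the pathway genes at an adjusted p under 0.05, the 5 with the smallest p, the 3 genes most like the member with the smallest p, marker genes at an adjusted p under 0.05, *Stat3* and sex-linked genes. *Col1a1* was named after its values were seen. The genes and lists were chosen with earlier results of these data known. Alternatives were other scalings, filters and tests (DESeq2 1.42.0, limma-voom 3.58.1), a replicate block, leaving out each library and the longest transcript as length. A gene counted in the pathway list is neither named nor drawn here.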

Additional observations from a re-analysis of the deposited data

How the results depend on the processing

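Fits under 14 alternatives per gene left every tested gene of the set at an adjusted p above 0.05 in edgeR, DESeq2 and limma-voom, with adjusted p from 0.187 to 0.559 for *Tgfbr3* and from 0.245 to 0.654 for *Tgfbr2*. Small log2 fold changes turned sign. *Ltbp2* became -0.030 with library totals, and over the fits that left out 1 library it ran from -0.031 (without OsxCre;Stat3fl/fl library 1) to 0.055, while *Tgfb2* ran from -0.066 to 0.035. The number of set genes higher at an unadjusted p under 0.05 became 0 with library totals and was 0 to 1 on leaving out a library. For the other pathway genes, lower calls at an unadjusted p numbered 2 with no filter and 2 with DESeq2's Wald test, and 1 to 2 on leaving out a library. Higher calls at an adjusted p numbered 4 with no filter, 5 with the Wald test, 0 with the replicate block and 0 to 2 on leaving out a library, and lower calls 1 with library totals, 1 with no filter and 1 with the Wald test. Over all genes at an adjusted p under 0.05, 121 higher and 75 lower became 250 and 178 with no filter, 304 and 235 with the Wald test, and 0 and 1 with the replicate block, which called 1002 higher and 1068 lower at an unadjusted p. Library totals gave 114 lower. Leaving out a library gave 7 to 67 higher and 5 to 36 lower, with fewer samples in each fit. With library totals, the median of all genes shifted to -0.05 and unadjusted calls split into 924 higher and 1727 lower, beside 1252 and 1301. Per longest transcript, *Tgfb1* made up 29.2% and *Tgfb3* 59.2% of the ligand sum, since only *Tgfb3* has the same length either way. Apart from that, the cause of these changes was not tested.

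Replicate numbers are shared between genotypes by label only, and same-numbered libraries correlated at -0.101, -0.518 and -0.085 in their deviations from the group means, so they were not treated as pairs. With the replicate block, *Fbn2* had an adjusted p of 0.15 and *Ctgf* of 0.106 in edgeR, and as 0 genes were called higher under it, the call of *Myh3* was lost too. Precision was limited by counts for *Tgfbr1* and *Ltbp1*, where 3 counts equal 0.252 to 0.368 CPM.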
